A study of Mus musculus with 4 samples.

Results

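The collagen genes were examined in cochlear ducts of mouse embryos from which the transcription factor *Tbx2* had been removed. Every gene spot whose symbol was *Col*, a number, *a* and a number was taken, which gave 44 genes read by 69 probes out of 29924 gene names and 39429 probes on the array. Of these 44 genes, 38 were well above background often enough to be tested, read by 55 probes, out of 21042 genes tested in all. The 6 genes that were not tested were *Col4a3*, *Col6a4*, *Col6a5*, *Col10a1*, *Col19a1* and *Col28a1*.

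Cochlear ducts of E14.5 embryos of the NMRI strain were compared between mutants and controls on 4 two-colour arrays. The mutants, called *Sox2-Tbx2LOF*, are labelled Sox2(creERT2);Tbx2(fl/fl), so that a tamoxifen-dependent Cre inserted at *Sox2* deletes *loxP*-flanked *Tbx2*. The controls are labelled Tbx2(fl/n.d.), with the second allele not determined, and the methods call them cre-negative. All dams had received 4 mg of tamoxifen by mouth at E12.5, so treatment was shared by both genotypes, whereas the Cre and the *Sox2* allele that carries it were in the mutants alone. *Sox2* drives Cre in prosensory and other SOX2-positive cells, but RNA came from whole ducts without the spiral ganglion, so cells outside the *Sox2* domain were measured with them. Each array held 1 mutant and 1 control pool of several ducts of the same sex, giving 4 independent pools per genotype. Pools were female on arrays 1 and 2 and male on arrays 3 and 4. The dyes were swapped within each sex, with the mutant pool in Cy5 on array 1 and array 3 and in Cy3 on array 2 and array 4.

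Collagens are proteins of 3 chains wound into a triple helix, which requires glycine at a fixed interval along each chain. Fibrillar collagens build the fibres of connective tissue, network collagens form basement membranes and microfilaments, fibril-associated collagens decorate fibres, and transmembrane collagens are held in the cell membrane. In the ear, cartilage collagens build the otic capsule, collagens of types II, IX and XI are also found in the tectorial membrane that lies over the hair cells, and type IV collagens line the basement membranes of the duct. In these ducts the collagen genes can come from epithelium, mesenchyme, cartilage, vessels and glia, and in bulk RNA fewer cells of a type and less RNA per cell cannot be told apart.

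The array reads each gene through probes of 60 bases, each printed in 4 spots, with positions in mouse build mm9. Whether a probe lies in an exon, an intron or a UTR is not given by the files. In 4 of the 69 probes, an open reading frame held at least 4 successive glycine codons (GGN, in capitals) at intervals of 3 codons, the repeat that encodes the triple helix. They are shown because they let the collagen repeat be seen in the sequences that were measured.
*Col25a1*, chr3:130270497-130270556, plus strand: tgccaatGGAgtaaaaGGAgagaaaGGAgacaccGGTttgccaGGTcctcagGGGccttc
*Col15a1*, chr4:47283786-47283845, plus strand: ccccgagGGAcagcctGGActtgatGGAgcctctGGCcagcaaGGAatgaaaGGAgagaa
*Col16a1*, chr4:129756457-129756516, plus strand: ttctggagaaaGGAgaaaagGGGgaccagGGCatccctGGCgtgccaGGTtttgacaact
*Col14a1*, chr15:55347733-55347792, plus strand: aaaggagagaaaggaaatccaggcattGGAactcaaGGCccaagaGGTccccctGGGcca
All 4 were well above background, with mean log2 ratios of mutant over control between -0.048 and 0.055. None of them was the brightest probe of its gene, which stands for the gene below.

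Of the 38 tested collagen genes, 4 passed an adjusted p of 0.05, 2 higher and 2 lower in the mutant. That is 10.5% of them, where 5.18% of all tested genes passed (2.26% higher and 2.92% lower). *Col1a1* and *Col9a1*, which encode chains of type I and type IX collagen, were higher. *Col5a3* and *Col25a1*, which encode a type V chain and a neuronal membrane collagen, were lower. None of the 38 changed by the 1.5-fold that the methods required, which 0.442% of all tested genes did with an adjusted p under 0.05. At an unadjusted p under 0.05, 11 of 38 collagen genes passed, against 20.2% of all tested genes.

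The median log2 ratio of the collagen genes was 0.034 and that of all tested genes 0.0024, and single genes lay between -0.43 and 0.28. The collagen median moved to 0.059 without array 1 and to -0.014 without array 3. The mean ratio was above 0 in 22 genes and below 0 in 16, where 51.7% of all tested genes were above and 48.3% below. On 4 of 4 arrays, 5 genes were higher and 5 lower, where 8.85% of all tested genes were higher and 9.31% lower on every array. The 4 mutant pools lay above all 4 control pools in *Col1a2*, *Col6a1* and *Col9a1* (1.75% of all tested genes) and below them in *Col5a3* (2.59% of all tested genes), 4 collagen genes in all against 4.34% of all tested genes.

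**Figure D1:**
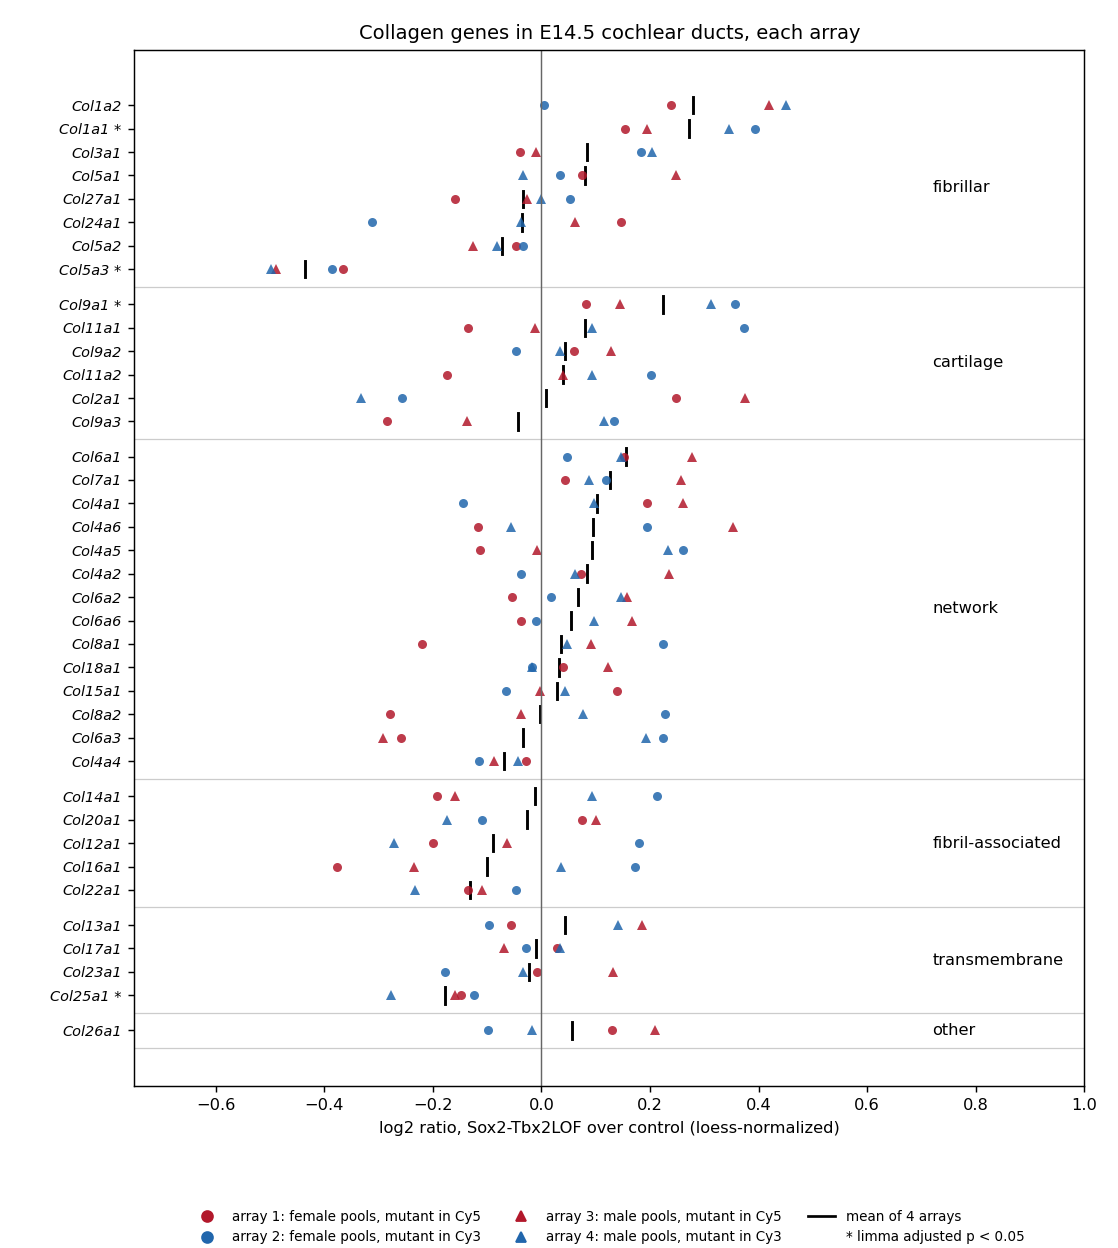
Log2 ratio of *Sox2-Tbx2LOF* over control for the 38 tested collagen genes (y axis, grouped by class), with 1 point per array (colour for the dye of the mutant pool, shape for sex) and a bar for the mean of 4 arrays. *Col5a3* stands apart at -0.43 with its 4 arrays together, whereas *Col2a1* spreads from -0.33 to 0.38 by dye.

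Type II and XI chains also form fibres but were grouped here with the cartilage collagens (*Col2a1* 0.0087, *Col11a1* 0.080, *Col11a2* 0.040). All 8 other fibrillar collagens on the array were tested. *Col1a1* rose and *Col5a3* fell at an adjusted p under 0.05, where 2.26% of all tested genes rose and 2.92% fell. This class of 8 had 4 mean ratios above and 4 below 0, with a median of 0.023. Of all tested genes, 51.7% had a mean ratio above 0.

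*Col5a3* encodes the alpha 3 chain of type V collagen, which assembles with type I fibres and is known from the nerve sheath among other tissues. Its probe (mm9 chr9:20574592-20574651, minus strand) gave log2 signals of 8.74, 8.62, 8.95 and 8.79 in the control pools of arrays 1 to 4. The mutant pools gave 8.37, 8.23, 8.46 and 8.29. Every mutant pool was below every control pool, at a mean of 8.34 ± 0.10 against 8.77 ± 0.14 (SD, n = 4 pools each). The ratios on the arrays were -0.37, -0.39, -0.49 and -0.50, a mean fall of 1.35-fold (log2 ratio -0.43, SE 0.040; limma adjusted p = 0.00086). By dye of the mutant pool, the mean ratio was -0.43 with Cy5 and -0.44 with Cy3, and by sex -0.38 in females and -0.49 in males. The call was lost in 1 of 16 settings, the unpaired comparison of pools that mirrors the study's test (adjusted p = 0.054; range over the settings 5.3e-05 to 0.054).

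The 250 bases before the start of *Col5a3* are shown, from RefSeq on build GRCm38.p6, since it moved most of the collagens and the deleted gene encodes a DNA-binding factor. Capitals mark CCAAT.
*Col5a3*, GRCm38.p6 chr9:20815068-20815317, minus strand: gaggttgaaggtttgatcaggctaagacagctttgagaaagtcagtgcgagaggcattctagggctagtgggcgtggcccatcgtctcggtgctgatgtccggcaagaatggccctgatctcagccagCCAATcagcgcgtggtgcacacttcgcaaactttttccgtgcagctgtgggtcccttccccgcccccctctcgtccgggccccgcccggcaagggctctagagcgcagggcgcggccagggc
GGTGTGA, the letters of a T-box half-site, and TATAAA were not in this window on either strand. Such windows matched 35 of the 44 collagen genes, 3 of them with a second start site. CCAAT stood in 34.2% of their 38 windows and in 33.8% of all 32851 windows, on either strand. TATAAA stood in 13.2% and 12.4%. GGTGTGA was in 0 of 38 collagen windows, and in 3.33% of all windows. GC content had a median of 59.2% in the collagen windows and 52.4% in all.

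*Col1a1* and *Col1a2* encode the chains of type I collagen, the main collagen of mesenchyme and bone. For *Col1a1* (mm9 chr11:94813115-94813174, plus strand) control pools gave 11.34, 10.48, 11.37 and 10.76 and mutant pools 11.49, 10.87, 11.56 and 11.11 on arrays 1 to 4. Both pools of arrays 2 and 4 were below both pools of arrays 1 and 3, so the genotypes overlapped although the mutant pool was the higher on 4 of 4 arrays. The ratios of 0.15, 0.39, 0.19 and 0.35 gave a mean rise of 0.27 on the log2 scale, or 1.21-fold (SE 0.034, SD 0.12, n = 4; limma adjusted p = 0.0045). The ratio was 0.17 with the mutant in Cy5 and 0.37 with the mutant in Cy3, and 0.27 in either sex. Without pairing pools by array, the adjusted p was 0.89, and without the dye term it was 0.095 (range over 16 settings 0.0032 to 0.89).

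*Col1a2* (mm9 chr6:4490619-4490678, plus strand) gave 16.09, 16.25, 16.10 and 15.93 in control and 16.33, 16.26, 16.52 and 16.38 in mutant pools. The 4 mutant pools lay above the 4 control pools, with 2 pools of array 2 nearly equal. Its mean ratio of 0.28 (SE 0.070, SD 0.21, n = 4) was as high as that of *Col1a1* but did not pass (limma adjusted p = 0.066). The array ratios were 0.24, 0.0041, 0.42 and 0.45. Without array 2, the ratio was 0.39 and the adjusted p 0.0020 (range over 16 settings 0.0020 to 0.34).

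**Figure D2:**
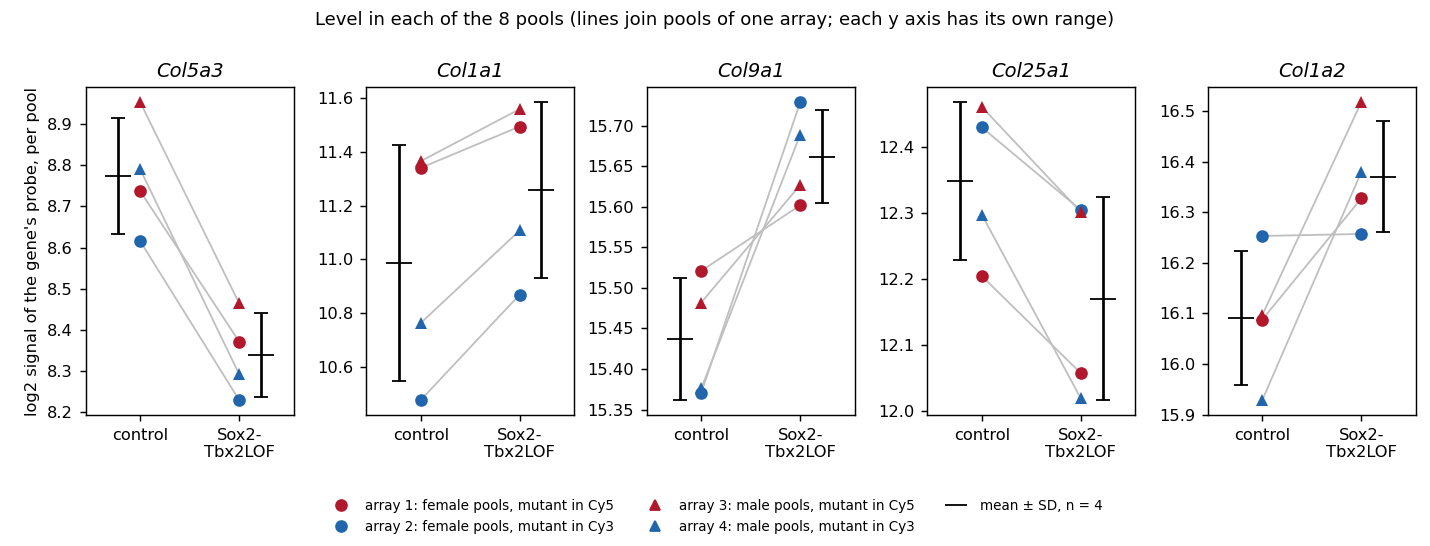
Log2 signal of the brightest probe (y axis, own range in each panel) in the 4 control and 4 *Sox2-Tbx2LOF* pools, with lines between the pools of 1 array and mean ± SD beside them. The groups do not overlap in *Col5a3*, *Col9a1* and *Col1a2*, and overlap in *Col1a1* and *Col25a1*, where the paired lines run in 1 direction.

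*Col3a1*, the fibrillar collagen of soft connective tissue, read 16.00, 15.84, 16.04 and 15.87 in control and 15.96, 16.02, 16.03 and 16.07 in mutant pools. Its ratio was negative with the mutant in Cy5 (-0.040 and -0.010) and positive with the mutant in Cy3 (0.18 and 0.20). The mean of 0.084 (SE 0.034) did not pass (adjusted p = 0.22). The other type V chains gave 0.081 (*Col5a1*, SE 0.041, adjusted p = 0.32) and -0.072 (*Col5a2*, SE 0.035, adjusted p = 0.30). *Col5a2* was lower on 4 of 4 arrays, between -0.13 and -0.035, and lies next to *Col3a1* in the genome. The developmental fibrillar collagens *Col24a1* and *Col27a1* gave -0.035 (SE 0.049) and -0.034 (SE 0.038).

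Of the 7 cartilage collagens, 6 were tested. *Col9a1* rose, where 2.26% of all tested genes did at an adjusted p under 0.05. Of the 6 mean ratios, 5 were above 0 (51.7% of all tested genes), and the class median was 0.042. Of these 5, *Col2a1* was below 0 without array 2 or 3, on the female arrays alone, with Agilent's processed signals, median centring or the series value table, and *Col11a2* without array 3. *Col9a1*, *Col9a2* and *Col9a3* encode the 3 chains of type IX collagen, which sits on the surface of type II fibres.

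*Col9a1* (mm9 chr1:24259125-24259184, plus strand) gave log2 signals of 15.52, 15.37, 15.48 and 15.38 in control pools and 15.60, 15.73, 15.63 and 15.69 in mutant pools. The groups did not overlap, with means of 15.44 ± 0.075 and 15.66 ± 0.058 (SD, n = 4 each). The ratio was 0.081, 0.36, 0.15 and 0.31, a mean of 0.22 or 1.17-fold (SE 0.035, SD 0.13; limma adjusted p = 0.012). It was 0.11 with the mutant in Cy5 and 0.34 with the mutant in Cy3. In contrast to the other 3 called genes, *Col9a1* also passed without pairing (adjusted p = 0.030). It did not pass without array 1 (0.061), without array 3 (0.086), with the series value table (0.065) or without the dye term (0.21), and the range over 16 settings was 0.0096 to 0.21. A second *Col9a1* probe, further 5′ at mm9 chr1:24201545-24201604, was well above background in 2 mutant and 1 control pools and was not tested (ratio 0.0058, SD 0.041).

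The other type IX chains were near 0. *Col9a2* read 16.53, 16.60, 16.58 and 16.64 in control and 16.59, 16.56, 16.70 and 16.67 in mutant pools, a ratio of 0.044 (SE 0.036, adjusted p = 0.57). *Col9a3* read 11.90, 12.28, 12.26 and 12.27 in control and 11.62, 12.42, 12.12 and 12.38 in mutant pools (ratio -0.043, SE 0.038, adjusted p = 0.60). Both genes had overlapping groups, and *Col9a3* was negative with the mutant in Cy5 and positive with it in Cy3. The intervals of the mean ratio (95%, from the fit) were -0.040 to 0.13 for *Col9a2* and -0.13 to 0.046 for *Col9a3*. For *Col9a1* it was 0.14 to 0.31, and the difference between the chains was not tested.

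*Col2a1*, the collagen of cartilage fibres and of the tectorial membrane, had the widest spread of the collagens over arrays. Control pools read 17.10, 17.24, 16.98 and 17.26 and mutant pools 17.34, 16.99, 17.35 and 16.93. The ratio was 0.25 and 0.38 on the arrays with the mutant in Cy5, and -0.26 and -0.33 on those with it in Cy3. The sign followed the dye, and the dye-balanced mean was 0.0087 (SE 0.038, SD 0.36, n = 4; adjusted p = 0.93).

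*Col11a1* and *Col11a2*, chains of the type XI collagen found in the core of type II fibres, did not pass. Levels of *Col11a1* were 13.98, 13.52, 13.91 and 13.74 in control and 13.84, 13.90, 13.90 and 13.83 in mutant pools (ratio 0.080, SE 0.051, adjusted p = 0.45). For *Col11a2* the levels were 11.27, 11.45, 11.49 and 11.47 in control and 11.10, 11.65, 11.53 and 11.57 in mutant pools (ratio 0.040, SE 0.045, adjusted p = 0.68). Groups overlapped in both genes. *Col10a1*, the collagen of hypertrophic cartilage, was well above background in none of the 8 pools.

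Of the 18 network collagens, 14 were tested and none passed limma's test at an adjusted p of 0.05, while 3 passed at an unadjusted p under 0.05. The mean ratio was above 0 in 11 of 14 genes, with a class median of 0.060, between -0.068 and 0.16. Over all tested genes, 20.2% had an unadjusted p under 0.05 and 51.7% a mean ratio above 0. Of the 11, *Col4a6* was below 0 without array 3, *Col8a1* without array 2 or array 3, *Col15a1* without array 1, *Col18a1* with median centring, and *Col6a2* and *Col6a6* on the female arrays alone. *Col8a2*, one of the 3 below 0, was above it in several settings, among them without array 1 and without array 4.

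Type IV collagens form the sheet of basement membranes and are encoded in 3 head-to-head pairs. *Col4a1* read 13.93, 14.12, 13.98 and 14.01 in control and 14.12, 13.97, 14.25 and 14.11 in mutant pools (ratio 0.10, SE 0.046, adjusted p = 0.27). Its pair partner *Col4a2* read 13.75, 13.82, 13.55 and 13.71 in control and 13.83, 13.78, 13.79 and 13.77 in mutant pools (ratio 0.083, SE 0.041, adjusted p = 0.31). These genes were both lower on array 2 and higher on the other 3 arrays.

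*Col4a5* gave 12.52, 12.52, 12.66 and 12.48 in control and 12.40, 12.78, 12.65 and 12.72 in mutant pools (ratio 0.093, SE 0.036, adjusted p = 0.20). *Col4a6*, its neighbour on the X chromosome, gave 10.76, 10.86, 10.78 and 10.80 in control and 10.64, 11.05, 11.14 and 10.74 in mutant pools (ratio 0.094, SE 0.076, adjusted p = 0.55). In *Col4a6* the mutant pools spread more than the control pools (SD 0.24 against 0.043). *Col4a4* gave 7.84, 8.11, 8.07 and 8.09 in control and 7.81, 8.0, 7.98 and 8.05 in mutant pools, lower on 4 of 4 arrays but with overlapping groups (ratio -0.068, SE 0.035, adjusted p = 0.34). Its partner *Col4a3* was well above background in no pool.

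Type VI collagen forms beaded microfilaments around cells. *Col6a1* read 12.70, 12.84, 12.81 and 12.76 in control and 12.85, 12.89, 13.09 and 12.91 in mutant pools, without overlap. Its ratios of 0.15, 0.047, 0.28 and 0.15 averaged 0.16 (SE 0.039, SD 0.095, n = 4), which did not pass (adjusted p = 0.067). *Col6a2*, its neighbour, gave 0.067 (SE 0.046, adjusted p = 0.48), *Col6a3* -0.033 (SE 0.034, adjusted p = 0.65) and *Col6a6* 0.054 (SE 0.044, adjusted p = 0.56). *Col6a3* followed the dye, at -0.26 and -0.29 with the mutant in Cy5 and 0.22 and 0.19 with it in Cy3. *Col6a4* and *Col6a5* were above background in no pool.

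*Col7a1*, which anchors epithelia to the stroma beneath, read 14.30, 14.21, 14.04 and 14.07 in control and 14.35, 14.33, 14.30 and 14.16 in mutant pools. It was higher on 4 of 4 arrays, by 0.13 (SE 0.043, SD 0.092, adjusted p = 0.15), and the groups overlapped. *Col15a1* and *Col18a1*, basement membrane collagens that give rise to endostatin-like fragments, had ratios of 0.029 (SE 0.040) and 0.031 (SE 0.035). The short-chain collagens gave 0.036 (*Col8a1*, SE 0.057) and -0.0024 (*Col8a2*, SE 0.049).

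*Col28a1*, a collagen known from peripheral glia, was not well above background in any of the 8 pools. Its probe read 6.43, 6.45, 6.49 and 6.49 in control and 6.42, 6.39, 6.31 and 6.37 in mutant pools, with ratios from -0.19 to -0.013. The mutant value was the lower on 4 of 4 arrays, but at signals within the background this gives no fold change, and it was not tested.

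Type IX chains are also fibril-associated but were grouped here with the cartilage collagens. Their ratios were 0.22 (*Col9a1*, which passed), 0.044 (*Col9a2*) and -0.043 (*Col9a3*). Of the other 6 fibril-associated collagens on the array, 5 were tested. None of these 5 passed limma's test at an adjusted p of 0.05, while 2 passed at an unadjusted p under 0.05. Over all tested genes, 20.2% passed at that unadjusted p and 48.3% had a mean ratio below 0. All 5 mean ratios were below 0, with a median of -0.089, although *Col14a1* was above 0 where its 2 probes were averaged, without array 4 and on the female arrays alone, and *Col12a1* without array 4. *Col22a1*, a collagen of tissue junctions, read 8.12, 7.85, 8.16 and 8.12 in control and 7.99, 7.80, 8.05 and 7.89 in mutant pools. It was lower on 4 of 4 arrays, by 0.13 on the log2 scale (log2 ratio -0.13, SE 0.041, adjusted p = 0.12), with overlapping groups.

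*Col16a1* read 13.75, 13.38, 13.74 and 13.49 in control and 13.37, 13.55, 13.50 and 13.53 in mutant pools, negative with the mutant in Cy5 (-0.38 and -0.24) and positive with it in Cy3 (0.17 and 0.036). Its mean ratio was -0.10 (SE 0.042, adjusted p = 0.23), and its 3 tested probes gave -0.16 to -0.048. *Col12a1*, a collagen of dense connective tissue, read 12.17, 11.28, 11.68 and 11.55 in control and 11.97, 11.46, 11.61 and 11.28 in mutant pools (ratio -0.089, SE 0.069, adjusted p = 0.54). *Col14a1* and *Col20a1* gave -0.012 (SE 0.037) and -0.027 (SE 0.035). *Col19a1* had 1 probe above background in 1 mutant pool, and was not tested.

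All 4 transmembrane collagens were tested, and *Col25a1* fell, where 2.92% of all tested genes fell at an adjusted p under 0.05. *Col25a1* encodes a membrane collagen of neurons with a part in motor innervation, also found in amyloid plaques. Its brightest probe (mm9 chr3:129885684-129885743, plus strand) read 12.20, 12.43, 12.46 and 12.30 in control and 12.06, 12.30, 12.30 and 12.02 in mutant pools. The mutant pool was the lower on 4 of 4 arrays, by 0.15, 0.12, 0.16 and 0.28 on the log2 scale, while the groups overlapped. The mean ratio was -0.18, a 1.13-fold fall (SE 0.039, SD 0.069, n = 4; limma adjusted p = 0.043), at -0.15 with the mutant in Cy5 and -0.20 with it in Cy3.

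The call for *Col25a1* passed in 7 of 16 settings (adjusted p from 0.021 to 0.69) and was lost without array 1 (0.15), array 3 (0.20) or array 4 (0.22). Its other 3 probes, including the one with the repeat printed above, gave ratios of -0.20 (SD 0.23), -0.21 (SD 0.27) and -0.047 (SD 0.17), the last from the repeat. With every probe fitted on its own in limma, the first of these 3 passed (adjusted p = 0.031), while the probe that stood for the gene did not (0.054), nor did the other two (0.062 and 0.67). All 4 probes were below 0 on average, and these 3 were each above 0 on array 2. The window before its start, with CCAAT in capitals and no GGTGTGA or TATAAA, is shown beside that of *Col5a3* as the other collagen that fell.
*Col25a1*, GRCm38.p6 chr3:130180595-130180844, plus strand: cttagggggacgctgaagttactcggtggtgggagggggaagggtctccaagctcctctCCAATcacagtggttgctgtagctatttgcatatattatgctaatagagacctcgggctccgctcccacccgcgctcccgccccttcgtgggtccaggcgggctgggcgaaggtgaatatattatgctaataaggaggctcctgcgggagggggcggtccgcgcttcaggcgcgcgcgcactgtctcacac
The windows of *Col5a3* and *Col25a1* had a GC content of 62.8% and 60.4%.

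The other transmembrane collagens gave 0.044 (*Col13a1*, SE 0.055), -0.0092 (*Col17a1*, SE 0.036) and -0.022 (*Col23a1*, SE 0.042). *Col17a1*, the collagen of epithelial hemidesmosomes, was well above background in 3 mutant and 4 control pools. *Col26a1*, which belongs to none of these classes, gave 0.056 (SE 0.036).

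Several probes were tested for 12 collagen genes, and their mean ratios had the same sign in 10 of them. *Col8a2* and *Col14a1* were the others, at -0.0024 and 0.062 and at -0.012 and 0.034. Some of these probes overlap in the genome, as in *Col15a1* and *Col26a1*, and are not independent of each other.

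The dye of the mutant pool moved many collagen ratios. In 13 of 38 genes (34.2%) both arrays with the mutant in Cy5 had the opposite sign to both arrays with it in Cy3, compared with 31.9% of all tested genes. None of the 4 called genes was among the 13. The dye component of the ratio had a median size of 0.076 in the collagen genes and 0.061 in all tested genes.

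**Figure D3:**
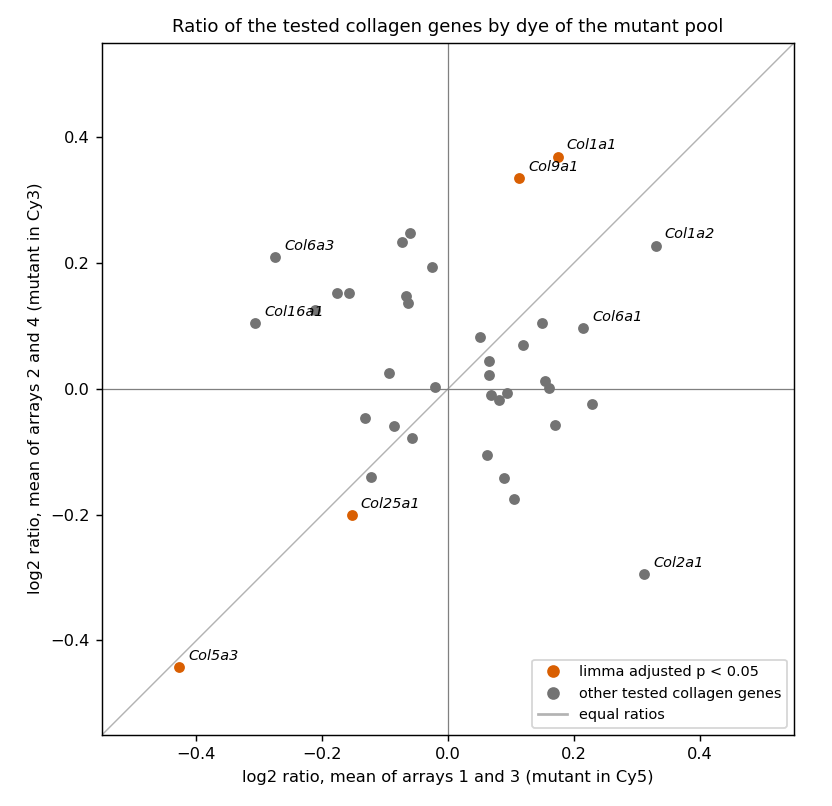
Mean log2 ratio of each tested collagen gene on the arrays with the mutant in Cy5 (x axis) and in Cy3 (y axis), with equal ratios on the diagonal. *Col5a3* lies on the diagonal at -0.43 and -0.44, and *Col2a1* far from it, in the quadrant of opposite signs.

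The effect of genotype was compared between female and male pools by the interaction of genotype and sex. No collagen gene passed an adjusted p of 0.05 in limma, nor did any of the 21042 genes (0%), while 2 collagen genes and 558 of all genes passed at an unadjusted p under 0.05. *Col1a2* gave 0.12 in females and 0.44 in males, and *Col13a1* -0.076 and 0.16 (adjusted p = 1.00 for both).

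Genes that fold, cut, link, bind and degrade collagen were examined from lists. Of 20 tested genes for collagen assembly in the secretory pathway, such as prolyl and lysyl hydroxylases, none passed, and their ratios lay between -0.13 and 0.11. Of 10 tested genes for processing and cross-linking, 1 rose, *Adamts2*, which cuts the amino-terminal propeptide from fibrillar procollagens. At an adjusted p under 0.05, 2.26% of all tested genes were higher and 2.92% lower. *Adamts2* gave 0.19, 0.50, 0.30 and 0.45 on arrays 1 to 4, a mean of 0.36 (SE 0.037, SD 0.14, n = 4; limma adjusted p = 0.0017). None of 8 collagen receptors and none of 7 proteases and inhibitors passed, with medians of 0.027 and 0.0088. In these 3 lists with no call, genes at an unadjusted p under 0.05 numbered 4, 2 and 2, against 20.2% of all tested genes. Of the 10 genes for processing and cross-linking, 5 had such a p, *Adamts2* among them.

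Markers of the cell types that could carry these collagens were read on the same arrays. Of 10 periotic mesenchyme markers, 8 were above 0 and 1 passed, *Postn*, which was lower (-0.26, SE 0.039, adjusted p = 0.011). Of all tested genes, 51.7% were above 0, 2.26% passed as higher and 2.92% as lower, and 20.2% had an unadjusted p under 0.05. The summed signal of the list was 261500 to 280000 in control and 278700 to 287100 in mutant pools, higher in the mutant on 4 of 4 arrays, and all 10 markers were well above background often enough to be tested. Without *Lum*, the other 9 summed to 147600 to 170700 in control and 156500 to 167200 in mutant pools, higher in the mutant on 2 of 4 arrays. The part of mesenchyme in the collagen ratios was not tested. Of 8 tested markers of the otic capsule cartilage, none passed (median -0.0060, 3 at an unadjusted p under 0.05), with a summed signal of 94200 to 95300 in control and 91200 to 107800 in mutant pools, while *Col9a1* rose. Its part in the *Col9a1* ratio was not tested.

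Among the markers of Schwann cell precursors reported here, *Foxd3*, *Fabp7* and *Cdh19* fell (log2 ratio -1.17, -1.03 and -0.63) and the other 6 did not pass. Of all tested genes, 2.92% fell and 2.26% rose at an adjusted p under 0.05. Of 10 neuronal markers, 7 fell (*Stmn3*, *Nefm*, *Nefl*, *Stmn2*, *Tubb3*, *Elavl4* and *Gap43*, -1.75 to -0.19) and *Isl1* rose (0.20), with a median of -0.37 and a summed signal of 58810 to 61030 in control and 56910 to 62000 in mutant pools. Without *Isl1*, the sum was 30270 to 35230 in control and 26340 to 30460 in mutant pools, lower in the mutant on 4 of 4 arrays. The part of glia in the fall of *Col5a3* and of neurons in that of *Col25a1* was not tested. Of 10 endothelial markers, 3 rose (*Cldn5*, *Egfl7* and *Esam*, 0.16 to 0.21) and the summed signal was 122100 to 132500 in control and 132600 to 142900 in mutant pools, next to the type IV and XVIII collagens of vessel walls, of which none passed. The part of vessels was not tested.

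Of 12 markers of the cochlear epithelium, all were well above background often enough to be tested. *Tectb* and *Otogl* were higher (0.68 and 0.26), and *Otoa*, *Lfng*, *Fgf10*, *Tecta* and *Jag1* lower (-0.76 to -0.19). For all tested genes the shares were 2.26% higher and 2.92% lower. On 4 of 4 arrays the mutant pool had the higher summed signal of this list, at 195300 to 218100 in control and 235400 to 243900 in mutant pools, without overlap. Without *Tectb*, the other 11 went the opposite way, summing to 130300 to 145800 in control and 120000 to 127600 in mutant pools, lower in the mutant on 4 of 4 arrays. The part of epithelium in the collagen ratios was not tested. These sums, each without the marker with the highest array signal of its list, were chosen after seeing the data, and array signals of different probes are not levels that can be ranked. None of 8 blood and none of 6 melanocyte markers passed (4 and 2 at an unadjusted p under 0.05, against 20.2% of all tested genes). Blood markers gave 255300 to 362300 in control and 287100 to 397100 in mutant pools, and melanocyte markers 68820 to 77570 and 71450 to 79120.

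**Figure D4:**
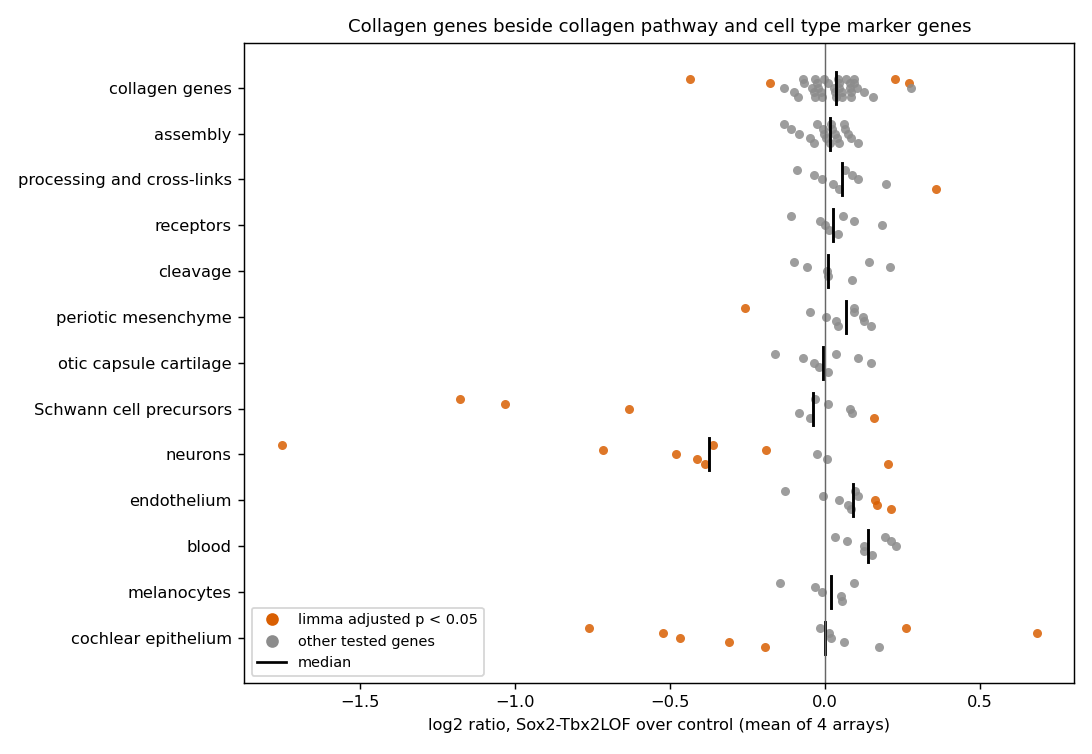
Log2 ratio of *Sox2-Tbx2LOF* over control, mean of 4 arrays (x axis), for the tested collagen genes and for the genes of each pathway or marker list (y axis), with a bar at the median and colour for an adjusted p under 0.05. The collagen genes stay between -0.43 and 0.28, whereas neuronal markers reach -1.75.

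The arrays were alike in quality, with median signals of 263 to 292 in Cy3 and 496 to 563 in Cy5 over backgrounds of 25 and 85 to 95. Saturation was not seen, and 69.2% to 72% of probes exceeded background well, depending on array and dye. As a check of the labels, *Esr1*, whose ligand-binding part is fused to Cre, was higher in the mutant by 2.17 (SE 0.052, adjusted p = 6.0e-06). The targeted gene *Tbx2* was lower on 4 of 4 arrays without passing (-0.12, SE 0.036, adjusted p = 0.12), and the position of its probe in the deleted part was not checked. *Sox2* gave 0.012 (SE 0.055). All 4 arrays lay on 1 slide, scanned on 1 day, so neither separates the genotypes.

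The 4 called genes kept their direction under every processing setting tried, while their calls did not hold in all of them. *Col5a3* passed in 15, *Col1a1* in 14, *Col9a1* in 12 and *Col25a1* in 7 of 16 settings with a test.

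**Figure D5:**
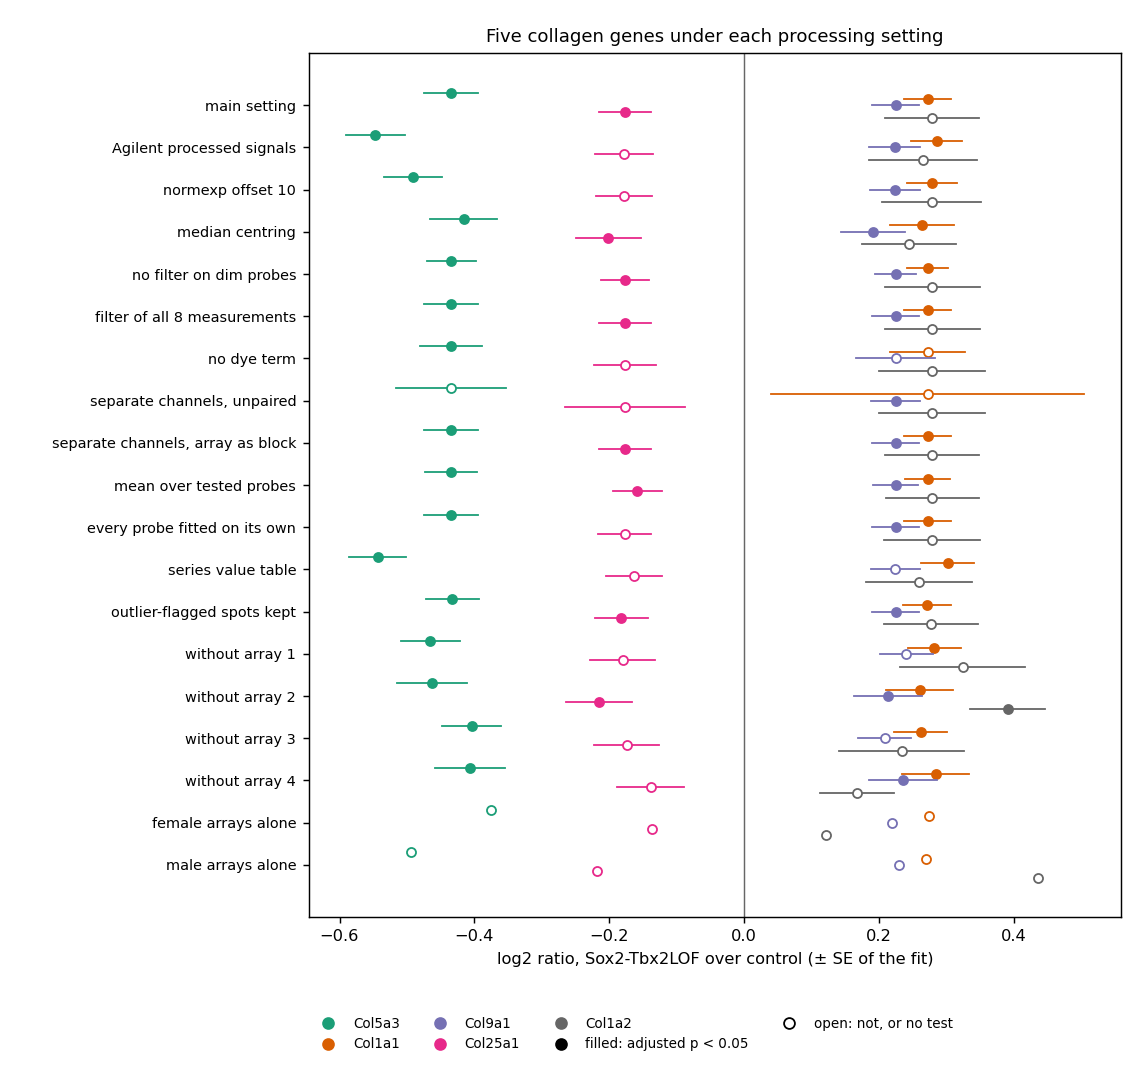
Log2 ratio ± SE (x axis) of the 4 called collagen genes and *Col1a2* under each processing setting (y axis), filled where the adjusted p was under 0.05. No ratio changes sign, and the unpaired comparison of separate channels widens the error of *Col1a1* and leaves *Col9a1* as the 1 call.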

How the data were processed

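RNA of pooled E14.5 cochlear ducts was hybridised to 4 two-colour Agilent arrays. The authors deposited Agilent Feature Extraction files (10.7.3.1, per the submitters' processing notes), whose intensity values are mean spot and median local background brightness in both dyes, not normalized. The quality flags per spot are also from the deposited files. The authors also deposited a value table, in which the score of a probe on an array is the fold change between mutant and control, signed by direction (column medians 1). Its values correlate with the log2 ratios computed here at 0.912 to 0.942 per array, and how it was normalized is not given in the sources used here. Gene symbols and mm9 positions come from the file headers and columns, and the custom design named there differs from the array named in the methods.

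Background was corrected by normexp (offset 50), and loess was applied to the log2 ratios of each array, without flagged spots (8.29% to 8.56% of gene spots). Unflagged spots were averaged by probe, and testing required that at least 4 of the 8 channel measurements of a probe were well above background (in 50% of spots). The brightest probe stood for a gene. Levels per pool are log2 signals after loess and Aquantile normalization, and levels of different genes were not compared, except to choose the marker left out of a list's summed signal. Genes were tested with limma 3.58.1 in R 4.3.3 with a dye term and Benjamini-Hochberg adjustment over 21042 genes (2 residual and 5.65 prior degrees of freedom). The number of arrays limits the precision. On simulated ratios of 21042 genes, 200 of them changed, this test recovered 48% of genes changed 1.25-fold and 82% of those changed 1.5-fold. Those changed 2-fold and 3-fold were recovered at 100% and 96%. In the data 1091 genes passed, and the adjustment depends on how many genes change, so recovery in the data may differ.

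Members and lists were chosen with earlier results of these data known. Named with their value in every pool are collagens with an adjusted p under 0.05, and the 3 highest and 3 lowest of the others. So are the tested type I, II, III, IV, IX and XI chains and *Col28a1*. Genes of other lists with an adjusted p under 0.05 are named without pool values. The result of 1 marker gene is not reported here. The methods' SAM test was not rerun, and an unpaired limma comparison was run as its counterpart. Promoter windows are from RefSeq on GRCm38.p6. The alternatives were other background corrections, normalizations, filters and probe summaries, the value table, fits without dye term or pairing, and leaving out each array.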

Additional observations from a re-analysis of the deposited data

Results flagged for a closer look

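In 3 of 80 sets of 4 values (38 sets of array ratios and 42 of pool levels), 1 value stood apart from the other 3. About 1 in 20 sets does so by chance. The control pool of array 1 was the low one for *Col9a3* (gap of 0.942 of the range) and for *Col4a4* (0.839), and that of array 2 for *Col22a1* (0.876). The mutant pool of the same array was also the lowest mutant pool in each of these genes.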

How the results depend on the processing

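Of the collagen calls, 2 were higher and 2 lower. The number higher became 0 without the dye term, 1 without pairing by array and 1 with the series value table, and 1 to 3 when each array was left out. The number lower became 1 with Agilent's processed signals, 1 with an offset of 10, 1 without the dye term, 0 without pairing and 1 with the value table, and 1 to 2 when each array was left out. With every probe fitted on its own, 2 were higher and 1 lower by the brightest probe of each gene, and another probe of *Col25a1* was also lower. In the other settings both numbers stayed at 2. The sex difference was refitted under the filter of all 8 measurements and on Agilent's processed signals, and none passed in either. Over all genes, 476 higher and 615 lower became 90 and 174 without the dye term, 82 and 132 without pairing, 157 and 257 with the value table, 236 and 380 with Agilent's processed signals, and 122 to 635 and 231 to 643 when each array was left out. The cause was not tested.

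None of the genes whose mean ratio changed sign passed in any setting. *Col2a1* became -0.029 with Agilent's processed signals, -0.029 with median centring and -0.057 with the value table. *Col8a2* became 0.0023 with Agilent's processed signals, 0.013 with the value table and 0.030 over both probes, and *Col14a1* 0.011 over both probes. With median centring, *Col17a1* became 0.038 and *Col18a1* -0.0087. Leaving out each array gave -0.023 to 0.041 for *Col2a1*, -0.063 to 0.058 for *Col8a2*, -0.042 to 0.11 for *Col8a1*, -0.042 to 0.018 for *Col14a1*, -0.034 to 0.015 for *Col17a1*, -0.013 to 0.094 for *Col11a2*, -0.20 to 0.024 for *Col12a1*, -0.017 to 0.10 for *Col13a1*, -0.0068 to 0.065 for *Col15a1*, -0.058 to 0.014 for *Col23a1*, -0.10 to 0.033 for *Col24a1* and -0.023 to 0.21 for *Col4a6*. Over single genes and the settings with a test, 563 values kept direction and side of the threshold, 27 changed sign, 16 lost and 1 gained the threshold. Of 76 values from the arrays of 1 sex alone, which have no test, 8 in 8 genes had the opposite sign, none of them a called gene.

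Each ratio pairs a mutant with the control pool of its array, and a fit of separate channels with the array as a block gave the same counts. All arrays share 1 slide, so a slide term was not fitted.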
